A study of Drosophila melanogaster with 2 samples.

Results

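Where 2 protein-coding genes are transcribed away from each other, 1 stretch of DNA can serve as promoter for both, and a protein bound there can sit upstream of each. The regions described here are CG15336-eGFP binding peaks near coding starts on both strands. Of them, 69.1% had the summit upstream of both starts, and whether 1 promoter serves both genes was not measured. They are the peaks on the main chromosome arms whose summit, the base of highest signal, lay within 500 bp of transcript starts of at least 2 protein-coding genes that included both strands. Of the 9295 peaks in the authors' conservative list made from both replicates, 612 met this rule (6.58%, Wilson 95% interval 6.10 to 7.11), and they are called shared promoter peaks. The rule used the position of the summit and the gene annotation only, and not the signal, the replicates or the sequence.

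The data came from Drosophila melanogaster of the strain CG15336-GFP, whole prepupae aged 2 days, whose sex was not collected. CG15336 was made as a fusion with eGFP from a transgene, and its chromatin was pulled down with an antibody to GFP, so the peaks are those of the tagged protein. All cell types of the animal were mixed in each sample, and no cell type can be assigned to a peak. The series held 1 group with 2 biological replicates, and no second condition or untagged control was analysed here. Replicate 1 alone gave 6678 peaks, of which 470 were shared promoter peaks (7.04%). Replicate 2 alone gave 8213 peaks on the arms, of which 542 were (6.60%), so that the mean share was 6.82% ± 0.310 (SD, n = 2). The peak lists do not tell how deeply each library was sequenced. Intervals on shares therefore cover counting over peaks, genes or pairs, which are not replicates of the animals.

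Paired genes with divergent starts are common in the compact fly genome, and many of them are housekeeping genes, used in most cells. Their promoters are known for a set of short sequences: the DNA replication-related element (DRE), bound by DREF, the CGATA core bound by the boundary protein BEAF-32, and promoter motif 1, bound by M1BP. Developmentally controlled promoters more often hold a TATA box, an initiator, or GA repeats bound by GAGA factor. CG15336 is a fly gene known by its annotation number.

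The reference sequence from the base after the minus-strand start to the base before the plus-strand start is shown for 4 gene pairs, to let the summit be read in its place between the genes. They had the highest signal among shared promoter peaks that were found in both replicates, had starts 150 to 300 bp apart and had the summit between them. The 41 bases centred on the summit are in capitals. The stretches lie between the transcripts and hold no annotated exon. Sequence is from Release 6 of the genome (dm6).
CG7601/CIA30, chr3R:29736746-29736964, plus strand, 219 bases: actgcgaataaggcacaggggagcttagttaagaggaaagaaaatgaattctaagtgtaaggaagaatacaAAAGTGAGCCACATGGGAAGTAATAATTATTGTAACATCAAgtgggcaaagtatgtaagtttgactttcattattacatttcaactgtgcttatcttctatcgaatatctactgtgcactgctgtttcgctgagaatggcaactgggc
Art3/mRpS10, chr3R:15229409-15229664, plus strand, 256 bases: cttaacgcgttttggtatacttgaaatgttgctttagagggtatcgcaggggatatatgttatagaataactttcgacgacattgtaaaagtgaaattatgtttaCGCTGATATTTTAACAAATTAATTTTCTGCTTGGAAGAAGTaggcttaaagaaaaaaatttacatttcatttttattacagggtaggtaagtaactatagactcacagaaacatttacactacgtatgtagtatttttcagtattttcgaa
CG13390/CG17294, chr2L:8376798-8377034, plus strand, 237 bases: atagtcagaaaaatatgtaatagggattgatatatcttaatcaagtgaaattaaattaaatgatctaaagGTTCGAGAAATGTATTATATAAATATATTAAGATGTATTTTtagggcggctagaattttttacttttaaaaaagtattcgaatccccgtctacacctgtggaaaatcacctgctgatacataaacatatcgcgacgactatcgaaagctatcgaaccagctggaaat
CG3437/CG3552, chr3L:9457670-9457911, plus strand, 242 bases: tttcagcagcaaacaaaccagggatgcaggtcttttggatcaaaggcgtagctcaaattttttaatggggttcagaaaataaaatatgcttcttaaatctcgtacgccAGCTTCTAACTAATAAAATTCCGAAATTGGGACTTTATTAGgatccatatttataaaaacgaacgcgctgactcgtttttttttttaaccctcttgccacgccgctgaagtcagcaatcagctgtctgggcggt
The capitals were 31.7%, 29.3%, 17.1% and 29.3% G and C in the order shown, and the whole stretches 37.9%, 30.1%, 30.8% and 40.1%. The capitals held a smaller share of G and C than the whole stretch, by less than 1 point for Art3/mRpS10. None of the 4 stretches holds the full DRE, TATCGATA, and none holds GAGAG on either strand.

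For contrast, a head-to-head pair with no peak at either gene is shown, with its DRE in capitals, since the DRE was found less often at shared summits than at the midpoints of pairs of this kind. It is 1 example, and a DRE does not mark pairs without a peak. Over whole stretches between the starts with 100 bp to each side, 22.6% of pairs with a DRE and 23.1% without had a shared peak.
RpL24-like/CG5276, chr3R:11431583-11431737, plus strand, 155 bases: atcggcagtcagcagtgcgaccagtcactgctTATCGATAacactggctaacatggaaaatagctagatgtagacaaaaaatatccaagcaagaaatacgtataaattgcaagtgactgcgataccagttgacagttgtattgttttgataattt
RpL24-like is named for its likeness to a ribosomal protein. Its start and that of CG5276 had no summit within 500 bp. This stretch was 38.1% G and C, within the range of the 4 stretches with a peak.

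Nearly all shared promoter peaks stood at genes that run away from each other. Taking the nearest start on each strand, the minus-strand start lay to the left of the plus-strand start, which is the head-to-head arrangement, at 594 of 612 peaks (97.1%, Wilson 95% interval 95.4 to 98.1). The replicate lists gave 97.02% and 96.3%, or 96.7% ± 0.503 (SD, n = 2). How many of all opposite-strand coding starts this close in the annotation are head-to-head was not computed. The share therefore describes the members and shows no preference of the protein for this arrangement. At the 18 other peaks the starts crossed, so that the 5′ ends of the transcripts overlapped. The head-to-head starts were a median of 280.5 bp apart, with the 25th and 75th percentiles at 206.25 and 392.75 bp and a range of 2 to 897 bp. All 2461 adjacent head-to-head start pairs of the genome up to 1000 bp apart had a median distance of 297 bp.

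The summit lay in the DNA between the head-to-head starts, upstream of both genes, at 423 of 594 peaks (71.2%, Wilson 95% interval 67.4 to 74.7). The share was 82.2% in replicate 1 and 68.6% in replicate 2, or 75.4% ± 9.66 (SD, n = 2), so it is known less closely than the interval over peaks says. Among summits between the starts, the median position was at 0.493 of the distance from the minus-strand start to the plus-strand start. The 25th and 75th percentiles were 0.364 and 0.631, which describe how near the middle the summits lay. Of these summits, 214 of 423 (50.6%, interval 45.8 to 55.3) were nearer to the minus-strand start. Plus and minus are labels of the reference sequence, and each pair has 1 start on each. The even split and the median near the middle therefore show nothing about the protein. The nearer start was a median of 117 bp away and the farther one 206 bp, beside a median of 187.5 bp for the 1552 promoter peaks that lay upstream of starts on 1 strand only. Of all shared peaks, 183 (29.9%) were upstream of starts on 1 strand only and 6 (0.980%) of none.

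How closely the summit was centred varied with the space between the genes. With starts 201 to 300 bp apart, 133 of 196 summits (67.9%, Wilson 95% interval 61.0 to 74.0) lay within 50 bp of the midpoint. The share was lower on either side of that spacing. It was 8 of 71 (11.3%) with starts up to 100 bp apart and 18 of 70 (25.7%) with starts over 100 and up to 200 bp apart. It was 62 of 117 (53.0%) at 301 to 400 bp and 22 of 67 (32.8%) at 401 to 500 bp. With starts over 500 bp apart it was 10 of 73 (13.7%, interval 7.61 to 23.4), and the summit was a median of 178 bp from the nearer start. At these widest pairs every summit lies between the starts because the rule asks for both within 500 bp. The narrowest pairs were different: with starts 1 to 100 bp apart, 4 of 71 summits lay between them (5.63%). The summits that lay outside such short intervals were a median of 86 bp past 1 start and 134 bp upstream of the other. At none of the 3 shortest pairs found in both replicates did the summit lie between the starts. At dpa and didum, which encode an MCM helicase subunit and myosin V and whose starts are 2 bp apart, the summit was 115 bp past the dpa start and 117 bp upstream of didum, with a signal of 122.2. At CG3032 and CG4593, 6 bp apart, it was 107 bp past CG3032 and 113 bp upstream of CG4593, with 476.1. At SerRS, the serine tRNA synthetase, and CG17260, 8 bp apart, it lay close to both starts, 16 bp upstream of SerRS and 8 bp past CG17260, with 233.8.

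**Figure D1:**
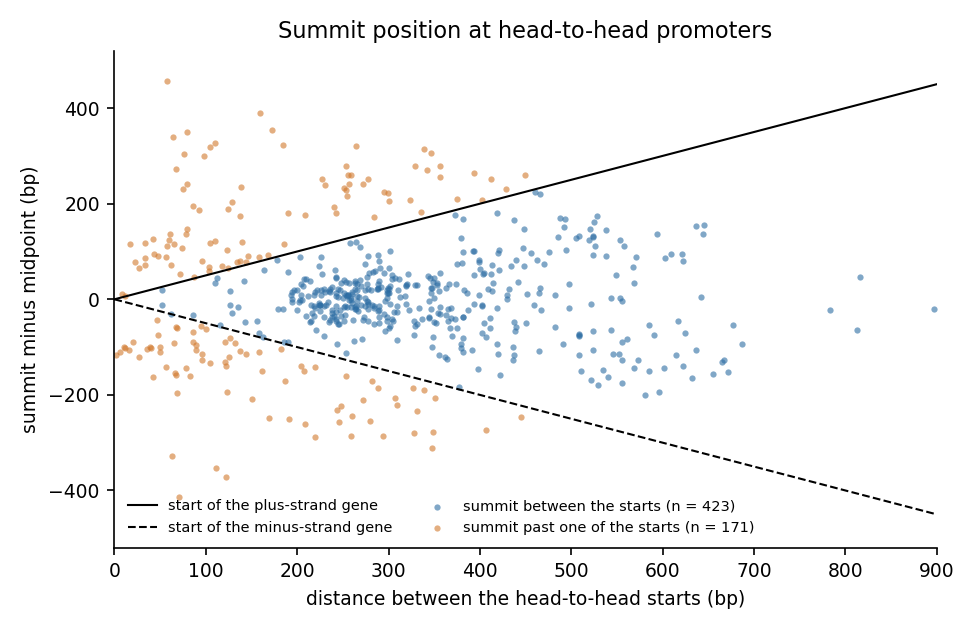
Each point is 1 of the 594 head-to-head shared promoter peaks, with the distance between the starts in bp on the x axis and the summit minus the midpoint in bp on the y axis, the solid line at the plus-strand start and the dashed line at the minus-strand start. The 423 blue points lie between the lines and crowd at the midpoint where starts are 201 to 300 bp apart, and the 171 orange points lie past one of the starts, mostly at short distances.

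Most windows held only the pair, but some were crowded. Exactly 2 protein-coding genes had starts within 500 bp of the summit at 577 of 612 peaks, and more than 2 at 35 (5.72%). In all, the windows held 1202 genes and 581 distinct nearest pairs, of which 31 had more than 1 shared peak. The fullest window, on 3R at 21365301 to 21365543, had starts of 10 annotated units named pre-mod(mdg4), at the locus of the chromatin protein mod(mdg4), whose messages are joined by trans-splicing. Its signal was 405.4 in the conservative list, 208.2 in replicate 1 and 193.5 in replicate 2. On 2R at 21669923 to 21670143, 5 genes including PIG-M and NC2alpha, a subunit of a general repressor of transcription, had starts near 1 summit with a signal of 374.8. Windows of 4 genes stood at COX6B and CG33932 on X (86.2) and at CG31650 and CG33995 on 2L (152.9).

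Genes with a neighbour starting on the other strand had a promoter peak more often than genes without one. Over all 13945 protein-coding genes on the arms, 2980 (21.4%) had a summit no more than 500 bp from one of their starts. The share was 1585 of 5141 (30.8%, Wilson 95% interval 29.6 to 32.1) for genes with an opposite-strand start within 1000 bp of one of their own, and 1395 of 8804 (15.8%, interval 15.1 to 16.6) for the others. The difference was 15.0 points (Newcombe 95% interval 13.5 to 16.5). The replicate lists gave differences of 12.1 and 11.9 points, or 11.99 ± 0.175 (SD, n = 2), which is larger than the spread between replicates. A summit between 2 starts is counted for both genes. With each summit credited only to the gene with the nearest start, an alternative chosen after seeing the data, 19.7% of paired genes had one and the difference was 4.24 points (interval 2.92 to 5.57).

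The interval of the difference was clear of 0 for genes with 1 or 2 starts, with a summit between 2 starts counted for both genes. Nearest-start credit, which cut the difference over all genes to 4.24 points, was not applied to these classes. Genes that share a summit are not independent, so the intervals are too narrow. Among genes with 1 transcript start, 24.2% of paired and 10.1% of unpaired genes had a promoter peak, a difference of 14.2 points (Newcombe 95% interval 12.6 to 15.8). With 2 starts the shares were 39.5% and 26.0%, 13.5 points apart (interval 9.84 to 17.1). With 3 or more starts they were 58.8% and 53.3%, and the difference of 5.46 points had an interval that included 0 (-0.397 to 11.2).

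Counted by pairs, 566 of the 2461 head-to-head start pairs of the genome (23%, Wilson 95% interval 21.4 to 24.7) had a summit within 500 bp of both starts. Replicate 1 alone gave 440 pairs (17.9%) and replicate 2 alone 484 (19.7%). A larger share of pairs on 3L than on X had one, 136 of 478 (28.5%, interval 24.6 to 32.7) against 67 of 386 (17.4%, interval 13.9 to 21.5). The shares on 2L, 2R and 3R were 24.1%, 20.2% and 24.0%, and 1 of 11 pairs on chromosome 4 had a peak. The share was 24.5% (interval 20.6 to 28.9) for pairs up to 100 bp apart, 27.1% (interval 23.5 to 30.9) for those farther apart but within 250 bp and 28.3% (interval 25.5 to 31.4) from there to 500 bp, with overlapping intervals. Pairs over 500 bp apart had a peak at 61 of 599 (10.2%, interval 8.01 to 12.9), where less DNA is within 500 bp of both starts.

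**Figure D2:**
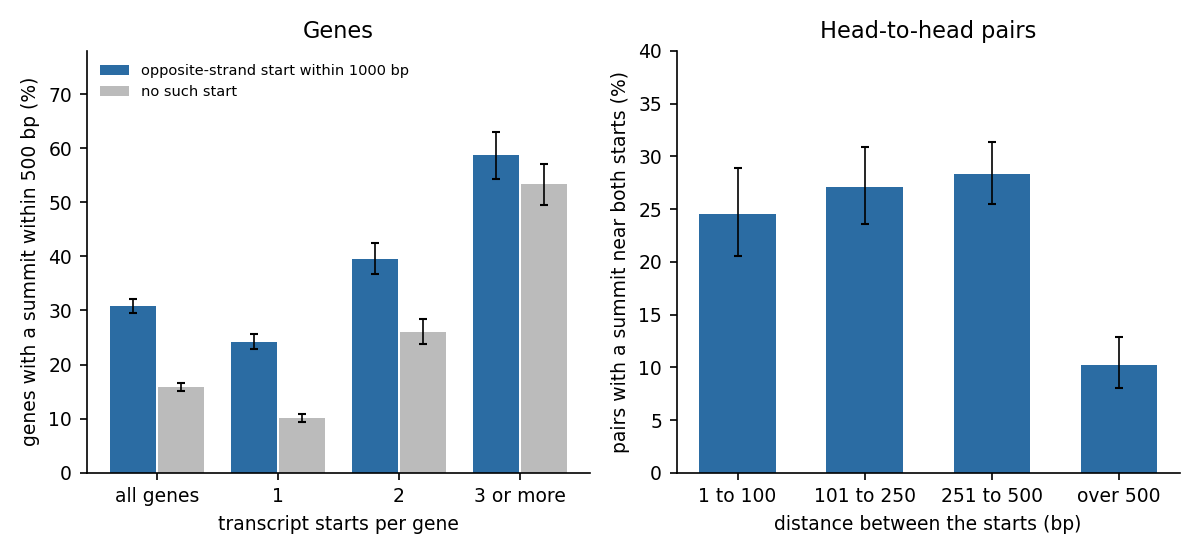
Left, the percent of protein-coding genes with a summit within 500 bp of a start, for genes with (blue) and without (grey) an opposite-strand start within 1000 bp, over all genes and by the number of transcript starts per gene. Right, the percent of the 2461 head-to-head pairs with a summit within 500 bp of both starts, by the distance between the starts in bp. Bars are shares in the conservative list and error bars are Wilson 95% intervals. In the left panel a summit near starts of several genes counts for each of them. The blue bars stand above the grey ones by 14.2 points at genes with 1 start and by 5.46 at genes with 3 or more, and the right panel falls to 10.2% for pairs over 500 bp apart.

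Among the 12 shared peaks of highest signal found in both replicates, 2 stood at genes of mitochondrial ribosomal proteins and 8 had at least 1 gene known by annotation number. Over all 612 shared peaks, these counts were 16 and 329. Signal is the authors' number for a peak. Its scale is not stated and each list has its own, so values are read within a list. The highest shared peak, on 2L at 13835312 to 13835636, lay between mRpS23 (FBgn0260407), a mitochondrial ribosomal protein, and CenG1A (FBgn0028509), an ARF GTPase-activating protein. Its signal was 1776 in the conservative list, rank 13 of 9295, with 807.8 in replicate 1 (rank 17) and 973.8 in replicate 2 (rank 15). It was 398 bp upstream of mRpS23 and 94 bp upstream of CenG1A. The peak at the F-box gene Fbw5 and CG9147 had 1529, with 700.9 in replicate 1 and 826.9 in replicate 2. The peak at Chro (FBgn0044324), a chromosomal protein of polytene interbands and of the spindle, and Ssl1 (FBgn0037202), a subunit of the general transcription factor TFIIH, had 1471. On 3L at 22878734 to 22879068, that summit was 81 bp past the Chro start and 186 bp upstream of Ssl1, and its signal was 764.4 in replicate 1 and 716.2 in replicate 2. All 3 ranked 45 or higher in each replicate.

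The 4 pairs whose sequence is shown had signals close to each other. CG7601 and CIA30, an assembly factor of respiratory complex I, had a signal of 1398, with 688.9 and 716.2 in replicates 1 and 2, and the summit stood 92 and 128 bp upstream of the starts. Art3, an arginine methyltransferase, and mRpS10, a mitochondrial ribosomal protein, had 1362, with 630.9 and 737.8, and the summit was 126 and 131 bp upstream. CG13390 and CG17294 had 1313, with 600.7 and 718.5, at 91 and 147 bp. CG3437 and CG3552 had 1301, with 615.9 and 684.6, at 129 and 114 bp. In each of the 4 the summit was at least 91 bp from both starts, and the peak ranked 55 or higher in both replicates.

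The other leading pairs were more varied in layout. CG31808 and Cyt-c-d, one of the fly's cytochrome c genes, had a signal of 1370, with 619.5 in replicate 1 and 740.2 in replicate 2, and were not head-to-head: the summit was 141 bp upstream of CG31808 and 375 bp past the Cyt-c-d start. The tank and CG12194 peak had 1318, with 585.2 and 737.3 in the replicates, and was 137 bp past the tank start and 485 bp upstream of CG12194. CG5611 and Mtl, a Rac-like GTPase, had 1306, with 647.7 and 622.4, and the summit was 127 and 225 bp upstream. Stt3A, a subunit of oligosaccharyltransferase, and bves, of the Popeye domain family, had 1220, with 501.8 and 705.5, at starts 609 bp apart. CG13933 and PolD2, a subunit of DNA polymerase delta, had 1169, with 494.0 and 680.2, and the summit was 374 and 112 bp upstream. Of these 12 peaks, the one at CG13933 and PolD2 had the lowest replicate 1 signal (rank 98), and the one at CG5611 and Mtl the lowest replicate 2 signal (rank 72).

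**Figure D3:**
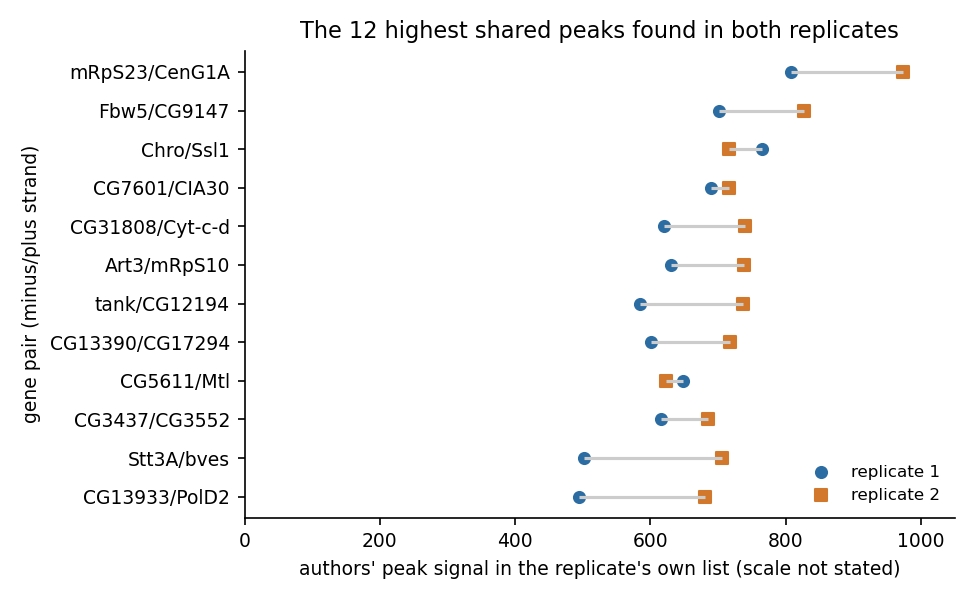
The authors' signal in each replicate's own peak list, whose scale is not stated, for the 12 shared promoter peaks of highest signal found in both replicates, with 1 gene pair per row (minus-strand gene first), circles for replicate 1 and squares for replicate 2. The peak at mRpS23 and CenG1A is the highest in each replicate, at 807.8 and 973.8, and levels are read within a replicate because the scales are separate.

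The lowest signals were 5.78 at SMSr, a sphingomyelin synthase-related protein, and smid, an AAA ATPase, 5.93 at CG14818 and Coa8, an assembly factor of cytochrome c oxidase, and 6.79 at Rab3GAP1 and CG14352. Of the 612 peaks, 61 overlapped another conservative peak and 30 of these were the lower one, with a median of 18.5 against 135.6 for the other members. Of 24 members with a signal under 40, 22 were under a higher overlapping peak. At the 500 bp limit, the 3 members just inside were CG14968 and ZnT63C (farther start 492 bp away, signal 645.8), Nab2 and BRWD3 (490 bp, 100.03) and Ufc1 and CG8389 (489 bp, 79.8). Just outside were app and CG32100 (501 bp, 466.1), CG13280 and CG13272 (501 bp, 159.2) and Epp and Rab7 (502 bp, 92.8).

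Gene lists differed in how often their genes stood at a shared promoter peak, and also in how often their genes were paired. Over all genes, 1202 of 13945 (8.62%, Wilson 95% interval 8.17 to 9.10) were in the window of a shared peak. Only a gene with a start on the other strand nearby can be, so the share among paired genes, 23.4% of 5141, is the closer measure. Paired were 36.9% of all genes, but 79.5% of mitochondrial ribosomal protein genes, 69.0% of general transcription factor and polymerase genes, 60.2% of cytosolic ribosomal protein genes, 14.6% of cuticle genes and 15.1% of chemoreceptor genes. The lists are by gene symbol, and their shares are descriptions without a test. Intervals given below are for the share of all genes in a list, not of its paired genes. Among paired genes, 4 lists lay near the 23.4%: oxidative phosphorylation (22.7%), splicing (20.7%), replication and repair (21.4%) and general transcription (25.9%).

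Of the proteins that build the cytosolic ribosome, 20 of 93 genes were at a shared peak (21.5%, Wilson 95% interval 14.4 to 30.9), or 35.7% of the 56 paired ones. Any promoter peak was at 41 of the 93 (44.1%, against 21.4% of all genes). The highest were RpL34b with CG8132 (signal 283.8), RpS20 with CG17271 (237.5) and RpL32 with CG7943 (229.6). The median signal over the peaks of these genes was 97.5, against 130.2 for all shared peaks. Of their 21 peaks, 17 overlapped a replicate 2 peak (81.0%, against 73.9% of all shared peaks) and 4 a replicate 1 peak (19.0%, against 69.0%). The reason for the low count in replicate 1 was not tested. GC within 50 bp of these summits was 40.7% ± 11.6 (SD over 21 peaks), above the mean of 30.8% for all shared peaks.

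Of the proteins of the mitochondrial ribosome, 16 of 73 genes were at shared peaks (21.9%, Wilson 95% interval 14.0 to 32.7), or 27.6% of the 58 paired ones. Any promoter peak was at 17 of the 73 (23.3%, near the 21.4% of all genes). Besides mRpS23 and mRpS10, mRpL23 with CG9004 was high, with a signal of 1021, 552.7 in replicate 1 and 465.3 in replicate 2. Of the 16 peaks, 12 were found in replicate 1 and 10 in replicate 2, 14 had the summit between the starts, and GC at the summit was 25.4% ± 7.67 (SD over 16 peaks). Of the subunits and assembly factors of oxidative phosphorylation, 10 of 86 genes were at a shared peak (11.6%), or 22.7% of the 44 paired ones. They were led by ND-ASHI, a complex I subunit, which shares its peak with the fumarase gene Fum1 (735.1, with 325.4 in replicate 1 and 397.2 in replicate 2). ND-MWFE with TppII (221.7) and COX5A with glo (154.1) followed.

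Of the machinery of translation, 8 of 32 aminoacyl-tRNA synthetase genes were at a shared peak (Wilson 95% interval 13.3% to 42.1%), or 36.4% of the 22 paired ones, led by ThrRS with Patsas (265.7), IleRS with Hem (254.3) and SerRS with CG17260 (233.8). Translation factors had 4 of 54 (7.41%), namely 14.3% of the 28 paired ones, with eIF3h and senju highest (260.1), then the release factors eRF3 with SC35 (155.7) and eRF1 with Rbbp5 (63.7). Proteasome genes had 3 of 48 (6.25%), or 11.5% of the 26 paired ones: Rpn3 with l(2)37Bb (276.6), Rpn13 with CtsL1 (110.5) and Prosbeta2 with mRpL39 (91.3). The intervals for translation factors (2.92 to 17.6) and the proteasome (2.15 to 16.8) include the share over all genes.

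Of nuclear machinery, general transcription factors and polymerase subunits had 15 of 84 genes at shared peaks (17.9%, Wilson 95% interval 11.1 to 27.4), or 25.9% of the 58 paired ones. Taf5, a TFIID subunit, with the peroxisome gene Pex6 had 409.6 (185.9 in replicate 1 and 217.9 in replicate 2), the RNA polymerase III subunit Polr3E with CG10584 had 303.7, and the Mediator subunit MED30 with Rev1 had 290.5. Splicing factors had 6 of 33 genes (18.2%), or 20.7% of the 29 paired ones, led by U2af50 with PIG-Q (349.2, with 173.1 and 172.9 in replicates 1 and 2), snRNP-U1-C with gukh (259.8) and Sf3b6 with Tnpo (130.1). Replication and repair genes had 6 of 40 (15.0%), or 21.4% of the 28 paired ones. These were led by the recombination gene Rad51D with CG8046 (464.8), mus312 with mrva (233.8) and Mcm2, a subunit of the replicative helicase, with RPA1, a subunit of the single-strand DNA binding protein (192.9). Both genes of that last pair act at replication forks.

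Of the genes listed for the response to the moulting hormone ecdysone, which drives the prepupal stage, 4 of 18 had an opposite-strand neighbour (22.2%, against 36.9% of all genes). Some promoter peak was at 13 of 18 (72.2%, against 21.4%). Over all genes that share rose with starts per gene, to 58.8% of paired and 53.3% of unpaired genes with 3 or more starts. Starts per gene were not compared for this list. At shared peaks were 2 of the 4 paired genes: usp, a partner of the ecdysone receptor, with CG4313 (147.1, with 95.5 in replicate 1 and 43.4 in replicate 2), and tai, a receptor coactivator, with CG9586 (131.6, with 46.7 and 87.3). Cuticle proteins had 1 of 96 genes at a shared peak (1.04%), which is 1 of the 14 paired ones (7.14%): Cpr73D with Ogdh (72.8), whose starts are not head-to-head. Chemoreceptor genes had 0 of 179, with an upper Wilson bound of 2.10%, of which 27 were paired, and none of the 179 had any promoter peak. Genes known by annotation number had 385 of 6097 (6.31%, interval 5.73 to 6.95), or 21.3% of the 1806 paired ones, near the 23.4% of all paired genes.

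In signal, shared peaks were close to the promoter peaks upstream of starts on 1 strand and above those downstream. The median signal in the conservative list was 130.2 for the 612 shared peaks (25th and 75th percentiles 86.8 and 241.8), 140.4 for the 1552 upstream peaks, 94.3 for the 772 downstream peaks and 123.1 over all 9295. The ratio of shared to upstream was 0.927 in that list and 0.959 ± 0.00613 (SD, n = 2) in the replicate lists, and it turned to 1.06 with a window of 250 bp and to 1.03 with a stricter reproducibility threshold. The ratio of shared to downstream was 1.38, and 1.34 and 1.301 in the replicate lists, or 1.32 ± 0.0272 (SD, n = 2). Signal hardly followed the distance between the starts: the medians ran from 113.0 at 1 to 100 bp to 137.0 over 500 bp, and Spearman's rho across the 594 head-to-head peaks, which come from the same libraries, was 0.0573. For starts in the classes up to 250 and up to 500 bp apart the medians were 124.0 and 134.4, and the 18 peaks that were not head-to-head had 144.1.

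Most shared peaks were found in each replicate, though not all past its threshold. A thresholded peak of both replicates overlapped 356 of 612 (58.2%, Wilson 95% interval 54.2 to 62.0), 162 (26.5%) had 1 in a single replicate and 94 (15.4%) in neither. Upstream peaks on 1 strand had 62.8%, and the difference of -4.65 points (Newcombe 95% interval -9.26 to -0.102) came with -0.118 points (interval -4.51 to 4.13) in replicate 1 and -8.17 points (interval -12.2 to -4.29) in replicate 2. This difference turned to 2.43 points with a window of 250 bp and to 1.14 points with a stricter reproducibility threshold. Downstream peaks had 41.5%, which is 16.7 points lower (interval 11.4 to 21.9). The 6359 peaks over 500 bp from any coding start, most of the list, had 60.0% (Wilson 95% interval 58.8 to 61.2), close to the shared peaks. The replicates' ranked lists hold weaker peaks too, 44200 and 65860 of them. The conservative list was made from the same replicates, so a match there could hardly fail. A match was found for 609 and 608 of the 612, and for 9256 and 9250 of all 9295 peaks. The signals of the 605 shared peaks matched in both had a Spearman's rho of 0.798, beside 0.782 over all peaks. These are descriptions over peaks of the same libraries. Summits of matched shared peaks were a median of 18 and 15 bp from the conservative summit, beside 19 and 17 bp over all peaks.

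Shared summits lay in a dip of GC content between GC-richer flanks. Within 50 bp of the summit GC was 30.8% ± 9.96 (SD over 612 peaks), and it was 45.9% in the flanks centred 300 bp away, with 83.3% of summits below their own flanks. Summit minus flank was -15.0 points, against -7.05 points at upstream peaks on 1 strand, whose summits were at 35.6%. The dip was not particular to shared peaks. The 6359 peaks over 500 bp from any coding start were at 32.7%, -12.2 points from their flanks, with 82.5% of summits below them. Downstream peaks on 1 strand had no such dip, at 42.7% and 0.871 points. Summits between the starts were at 27.8%, and 92.2% of them were below their flanks. Pairs without a peak were AT-rich there too. The midpoints of the 1543 head-to-head pairs with no peak at either gene were at 34.1%, and the midpoints of pairs with a shared peak at 31.2%. Unpeaked midpoints were -11.6 points from their flanks, and 81.7% of them were below. Protein-coding starts as a whole were at 43.7%. The replicate lists gave 28.5% and 32.8% for shared summits.

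The DRE, TATCGATA, was rarer at the summit than beside it. Within 50 bp, 5 of 612 shared summits (0.817%, Wilson 95% interval 0.349 to 1.90) held it on either strand, against 5.96% of unpeaked midpoints and 4.48% of windows of the same length at all 19252 protein-coding starts. Other summits seldom held it either: 0.644% upstream on 1 strand, 0.130% downstream and 0.173% over 500 bp from any coding start. Shared summits differed from upstream ones by 0.173 points, with an interval that included 0 (-0.540 to 1.29). The difference from unpeaked midpoints was -5.15 points (Newcombe 95% interval -6.52 to -3.62). Measured at midpoints in both, it was 3.004% for pairs with a peak and 5.96% without, a difference of -2.96 points (interval -4.67 to -0.902), an alternative chosen after seeing the data. From 51 to 250 bp away, 98 of 612 shared peaks had a DRE (16.0%, interval 13.3 to 19.1), against 2.51% of upstream peaks on 1 strand and 12.6% of unpeaked pairs. There the difference from unpeaked pairs was 3.38 points (Newcombe 95% interval 0.164 to 6.86), opposite in sign to that within 50 bp. The wider range searches more DNA. The number of windows with a DRE per peak and kb searched was 0.0809 within 50 bp and 0.400 from 51 to 250 bp. Over the whole stretch between the starts with 100 bp to each side, pairs with a DRE had a shared peak as often as pairs without to within the interval: 123 of 545 (22.6%) against 23.1%, a difference of -0.552 points (interval -4.39 to 3.57). Promoter motif 1, searched as GGTCACAC, was at 1.14% of summits and at 15.2% from 51 to 250 bp, which is 0.113 and 0.380 windows per peak and kb searched. In the wider range upstream peaks on 1 strand had 2.77% and unpeaked pairs 12.9%, a difference from the latter of 2.30 points whose interval included 0 (-0.865 to 5.74). Between midpoints with and without a peak it was -0.461 points (interval -1.89 to 1.38).

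GA repeats were found more often at single-strand promoter peaks than at shared ones. GAGAG, the core of GAGA factor sites, lay within 50 bp of 46 of 612 shared summits (7.52%, Wilson 95% interval 5.68 to 9.88) and of 20.2% of upstream summits on 1 strand, a difference of -12.7 points (Newcombe 95% interval -15.4 to -9.60). The 6359 peaks over 500 bp from any coding start had 10.5%, downstream peaks on 1 strand 17.2% and all protein-coding starts 12.7%. A share below that of upstream peaks was therefore not particular to shared peaks. Unpeaked midpoints had 7.65%, and shared summits differed from them by -0.131 points (interval -2.46 to 2.53). The replicate lists gave 5.32% against 14.2% and 9.59% against 25.7%. The longer AGAGAGAG, which contains GAGAG, was at 2 shared summits (0.327%) and 4.25% of upstream ones. Of the head-to-head pairs that held AGAGAGAG, 9 of 82 (11.0%) had a shared peak, against 23.4% of pairs without it, a difference of -12.4 points (interval -17.8 to -3.69). For pairs that held GAGAG it was 179 of 873 (20.5%) against 24.4%, a difference of -3.87 points (interval -7.21 to -0.393). Their median start distance was 387 against 261.5 bp.

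TATAAA, the TATA box letters, was at 28.6% of shared summits, against 20.6% of upstream summits on 1 strand, 21.8% of unpeaked midpoints and 15.5% of all starts. Peaks over 500 bp from any coding start had 23.4%, and downstream peaks on 1 strand 10.2%. The difference from upstream peaks was 8.04 points (Newcombe 95% interval 4.02 to 12.2), in windows that also had less GC. With a promoter window of 1000 bp it was 2.84 points and its interval included 0 (-0.360 to 6.14). Between midpoints with and without a peak it was 3.78 points (interval -0.254 to 8.03). Pairs with TATAAA between or near the starts had a peak less often than pairs without, 21.5% against 25.7%, a difference of -4.19 points (interval -7.75 to -0.718), at a median start distance of 366 against 199.5 bp. CGATA, which the DRE contains, was at 14.9% of shared summits and 26.4% of unpeaked midpoints, a difference of -11.5 points (interval -14.9 to -7.79). Between midpoints with and without a peak it was -7.30 points (interval -11.1 to -3.24). Pairs with CGATA between or near the starts had a peak at 21.7%, against 26.7% without. That difference was -4.97 points (interval -8.97 to -1.16), at a median start distance of 314.5 against 256 bp. CAGCTG, an E-box, was at 2.94% of shared summits against 7.06% of unpeaked midpoints. At midpoints of pairs with a peak it was at 6.36%, and that difference of -0.70 points had an interval that included 0 (-2.92 to 1.90). Pairs with CAGCTG anywhere between or near the starts had a peak more often than pairs without, 27.8% against 20.8%, 7.07 points apart (interval 3.42 to 10.8). The initiator core TCAGT was at 13.7% of shared summits, 18.2% of upstream summits on 1 strand and 17.0% of unpeaked midpoints. Pairs with TCAGT between or near the starts had a peak at 20.5%, against 27.1% without. That difference was -6.63 points (interval -10.2 to -3.17), at a median start distance of 354.5 against 235 bp. Runs of A, searched as AAAAAAAA, were at 10.1% of shared summits, 11.5% of upstream summits on 1 strand and 5.51% of unpeaked midpoints. CACACACA (1.47%), ACAGTG (4.74%) and CAGGTA, the core of Zelda sites (1.63%), were within 1 point of the shares at upstream peaks on 1 strand, which were 2.26%, 5.73% and 2.00%. These are matches of letters on both strands, not measured binding of any of these factors.

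**Figure D4:**
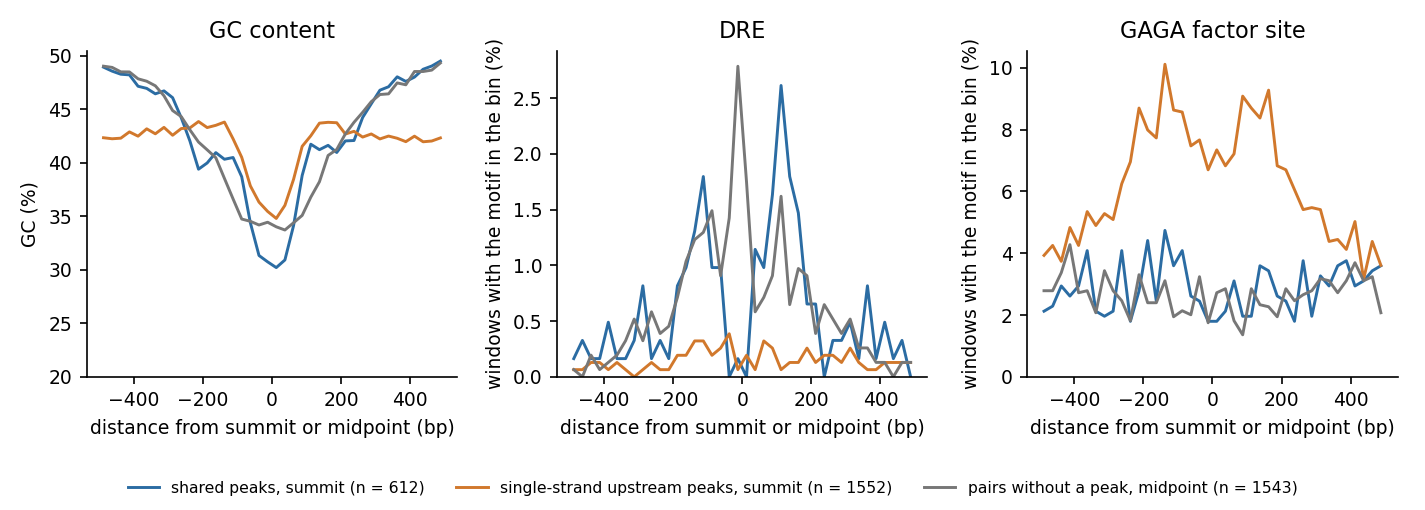
GC content and the percent of windows with the DRE (TATCGATA) or GAGAG in 25 bp bins, over distance in bp from the summit (shared peaks and upstream peaks on 1 strand) or from the midpoint (head-to-head pairs without a peak). At shared summits GC dips to about the 30.8% mean of the central window, the DRE is nearly absent in the centre and reaches 2.61% in the bin centred 112.5 bp to the right, and GAGAG lies below the upstream peaks around the summit.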

How the data were processed

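Chromatin was sheared by sonication and precipitated with an anti-GFP antibody from whole prepupae, 2 biological replicates, per the labels. Peak lists use dm6, per the labels. Aligner and peak caller: not given in the sources used here. The authors deposited ranked and thresholded lists for each replicate and for both together, per the deposited listings. Peak signal was deposited with no stated scale. The deposited ranked lists give a -log10 of the global irreproducible discovery rate (IDR), at least 2.00 in the conservative list. The pooled ranked lists hold 16 unnamed columns, not used here, and 6 mitochondrial peaks of replicate 2 were left out.

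Starts came from Ensembl release 115 and sequence from the RefSeq copy of Release 6, whose arm lengths match dm6. Peaks were matched between lists by an overlap of at least 1 bp. Head-to-head pairs were adjacent starts up to 1000 bp apart. Shares have Wilson and differences Newcombe 95% intervals. No p-value was computed, since 1 group allows no test over samples. Coordinates are 1-based. The members, the 13 gene lists and the 12 motifs were chosen with earlier results of these data known. Named pairs are the 12 highest in both replicates, the 3 lowest, the 3 with the shortest distance found in both, up to 3 genes a list with the highest signal, and 3 on each side of the limit. Windows with more than 3 genes were named after their values were seen. Alternatives were other windows, thresholds, lists, starts and overlaps. Work was done in Python 3.11.15 (matplotlib 3.10.9, scipy 1.17.1, pandas 2.3.3, numpy 2.4.6), and the code was tested on simulated data.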

Additional observations from a re-analysis of the deposited data

How the results depend on the processing

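Of 124 recomputed values, 84 stayed within the limit set for their kind: the same direction and side of 0 for a difference with an interval, 1.5 times for a count, the Wilson interval for the percent found in both replicates, and 1 SD between replicates for the rest, also where a rho changed sign. Past that limit were 34 other values. Of the differences with an interval, 4 came to include 0 and 2 changed sign. The cause was not tested. The number of shared peaks (612) was 370 with a window of 250 bp, 980 with 1000 bp and 353 at an IDR of 0.001 or less, and 470 to 542 with 1 replicate left out. The percent found in both replicates (58.2) was 62.4 with 250 bp, 92.6 at the strict IDR, 51.5 with the less strict list, 45.3 with an overlap of at least 50% of each peak and 98.9 in the ranked lists. Its difference from upstream peaks on 1 strand (-4.65 points) reversed to 2.43 with 250 bp and 1.14 at the strict IDR, and was -3.59, -3.77 and -0.113 with the less strict list, 50% overlap and ranked lists. The signal ratio to those peaks (0.927) was 1.06 with 250 bp, 0.871 with 1000 bp, 1.03 at the strict IDR, 0.969 with the less strict list, 0.920 with outermost starts, 0.901 with overlapping peaks reduced, and 0.955 to 0.964 with 1 replicate left out. The head-to-head percent (97.1) was 98.1 with 250 bp, 96.0 with 1000 bp, 95.4 with outermost starts and 96.3 to 97.02 with 1 replicate left out. Summits between the starts (71.2%) were 61.3% with 1000 bp and 68.6% to 82.2% with 1 replicate left out. Paired genes with a peak (30.8%) were 24.8% with 250 bp, 37.1% with 1000 bp, 18.4% at the strict IDR, 34.6% with the less strict list, 27.1% with outermost starts, 17.8% with the peak over a start, 19.7% by nearest start, and 23.2% to 27.7% with 1 replicate left out. Summit GC (30.8%) was 34.0% with 1000 bp and 28.5% to 32.8% with 1 replicate left out. The TATAAA difference (8.04 points) was 2.84 with 1000 bp. Spearman's rho of distance and signal (0.0573) was -0.112 to 0.0866 with 1 replicate left out, -0.0437 with 1000 bp and -0.0387 at the strict IDR. Listed genes at shared peaks (91) were 56 with 250 bp, 53 at the strict IDR and 69 to 85 with 1 replicate left out. The paired gene difference (15.0 points) kept its direction, from 4.24 to 17.6 points. So did the GAGAG difference from upstream peaks and the DRE difference from unpeaked midpoints, both searched within 50 or 100 bp. From 51 to 250 bp away, a range not among these settings, the DRE difference from unpeaked pairs had the other sign, 3.38 points. No paired analysis was possible because the series holds 1 group. Nearest-start credit, midpoints of pairs with a peak, and windows of exactly 2 genes were chosen after seeing the data. Depth, and so the detection of weak peaks, cannot be read from peak lists.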
